A study of Mus musculus with 4 samples.

Results

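The Bcl2 family genes that set survival and death at the mitochondrion were followed in mouse bone marrow-derived cells (BMDC) cultured in Flt3 ligand, which turns marrow progenitors into dendritic cells. The 10 genes were chosen by symbol from the 26026 genes of the table, with earlier results of these data known. All 10 averaged 1 RPKM or more (a read density corrected for transcript length and library size). Polyadenylated RNA was sequenced in 4 libraries. These were Nfkb1-/- at day 5, wild type at day 5, Nfkb1-/- at day 3 and wild type at day 3, all on the background that the labels write as C57/B16. All 4 cultures received 100 ng/mL Flt3 ligand, and the medium was renewed on day 3. Nfkb1 encodes p105 and its processed form p50, a subunit of the transcription factor NF-kB, and the labels give no cell type restriction of its loss. Each group is 1 library, so the differences below come without any check by replicates, and the sources used here do not give the number of animals behind a library. The study asked how p50 and its partner subunit RelA act together during this differentiation.

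Proteins of the family decide whether the outer mitochondrial membrane stays intact. Bax and Bak, the effectors, form pores in it, which release cytochrome c and start the caspase cascade. Pro-survival proteins (Bcl-2, Bcl-xL from Bcl2l1, Mcl-1 and the A1 proteins from the Bcl2a1 genes) hold the effectors back, and BH3-only proteins (Bim from Bcl2l11, Bid, and Noxa from Pmaip1) answer death signals by binding the pro-survival proteins or the effectors. Bcl2a1 and Bcl2l1 are known NF-kB target genes, neutrophils are known for their dependence on Mcl-1, and dendritic cells, B cells and T cells each rely on Bcl-2 or its relatives for their lifespan.

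Mouse A1 proteins come from several near-identical gene copies on chromosome 9, and Bcl2a1b and Bcl2a1d are among the 10 genes. The first 99 coding bases of Bcl2a1d, Bcl2a1b and a further expressed copy, Bcl2a1a, are shown because they hold most of the coding positions by which a read can be told apart between copies. Capitals mark the 7 positions at which the 3 copies differ in this stretch (GENCODE M21 transcripts on GRCm38, at chr9:88731621-88731719 on the minus strand for Bcl2a1d, chr9:89199360-89199458 on the plus strand for Bcl2a1b and chr9:88957051-88957149 on the plus strand for Bcl2a1a).
Bcl2a1d: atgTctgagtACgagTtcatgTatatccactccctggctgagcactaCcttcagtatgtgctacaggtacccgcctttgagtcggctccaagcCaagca
Bcl2a1b: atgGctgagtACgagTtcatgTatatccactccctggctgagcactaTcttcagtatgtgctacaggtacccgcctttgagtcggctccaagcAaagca
Bcl2a1a: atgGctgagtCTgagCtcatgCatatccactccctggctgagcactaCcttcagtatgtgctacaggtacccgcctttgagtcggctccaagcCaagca
Counted from the A of the start codon, Bcl2a1d differs from Bcl2a1b at 6 of 519 coding bases (T4G, C48T, C94A, A312G, G381C and A490T, with the base of Bcl2a1d first). It differs from Bcl2a1a at 7 (T4G, A11C, C12T, T16C, T22C, G337T and G407A). Over whole transcripts the identity was 99.1% between Bcl2a1d and Bcl2a1b and 98.8% between Bcl2a1d and Bcl2a1a. Of all 50-base windows of the Bcl2a1d transcript, 79.5% occur unchanged in another Bcl2a1 transcript, against 57.6% for Bcl2a1b and 69.0% for Bcl2a1a. How the authors assigned reads that fit several copies is not given in the sources used here, so each single copy below is uncertain and the sum over the copies is given beside it.

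The libraries held between 15255070 and 16215214 reads. At day 5, reads in listed genes made up 74.3% of the total in Nfkb1-/- and 74.1% in wild type. At day 3 they made up 75.8% in Nfkb1-/- and 70.8% in wild type, the lowest share. RPKM was scaled to the full totals and not to the reads in listed genes. Nfkb1, the targeted gene, stood at 64.7 RPKM in Nfkb1-/- and 114 RPKM in wild type at day 5, and at 56.0 RPKM in Nfkb1-/- and 74.8 RPKM in wild type at day 3, so it was lower in both knockout libraries without being absent. Cell type markers moved between libraries. The 8 common dendritic cell markers, with Itgax and class II genes among them, summed to 1865 RPKM in Nfkb1-/- and 4721 RPKM in wild type at day 5, and to 1599 RPKM in Nfkb1-/- and 2915 RPKM in wild type at day 3. The 11 late neutrophil markers, dominated by S100a8 and S100a9, summed to 2784 RPKM in Nfkb1-/- and 13052 RPKM in wild type at day 5, and to 22778 RPKM in Nfkb1-/- and 32373 RPKM in wild type at day 3. The cultures were thus mixed, and no marker list had a gene at a single read in every library. In such bulk samples, fewer cells of a type and less RNA per cell cannot be told apart.

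Mcl1 was the most abundant of the 10 genes in every library. It stood at 177 RPKM in Nfkb1-/- and 159.8 RPKM in wild type at day 5, and at 198 RPKM in Nfkb1-/- and 185 RPKM in wild type at day 3. Its transcripts made up between 73.4% and 83.0% of the summed RPKM of the 5 pro-survival genes. Behind it came Bak1, Bax and Bid in that order in all 4 libraries, with Bak1 and Bax overlapping in their counting intervals in wild type at day 5 and apart in the others. The other 6 genes lay between 4.04 and 25.1 RPKM, and several neighbours in that order could not be separated. In Nfkb1-/- at day 5 they ran from Pmaip1 through Bcl2a1b, Bcl2, Bcl2l1 and Bcl2l11 to Bcl2a1d, with overlap between Pmaip1 and Bcl2a1b and between Bcl2l1 and Bcl2l11. In wild type at day 5 they ran from Bcl2a1b through Pmaip1, Bcl2, Bcl2l1 and Bcl2l11 to Bcl2a1d, with overlap between Bcl2a1b and Pmaip1 and between Bcl2 and Bcl2l1. In Nfkb1-/- at day 3, each of Bcl2a1b, Bcl2l1, Bcl2l11, Pmaip1, Bcl2a1d and Bcl2 overlapped the next. In wild type at day 3 Bcl2a1b was highest of the 6 and neighbours overlapped among Bcl2l1, Bcl2l11, Pmaip1 and Bcl2, while Bcl2a1d was lowest and apart. The intervals are exact 95% Poisson intervals of the reads, and they cover counting error only.

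**Figure D1:**
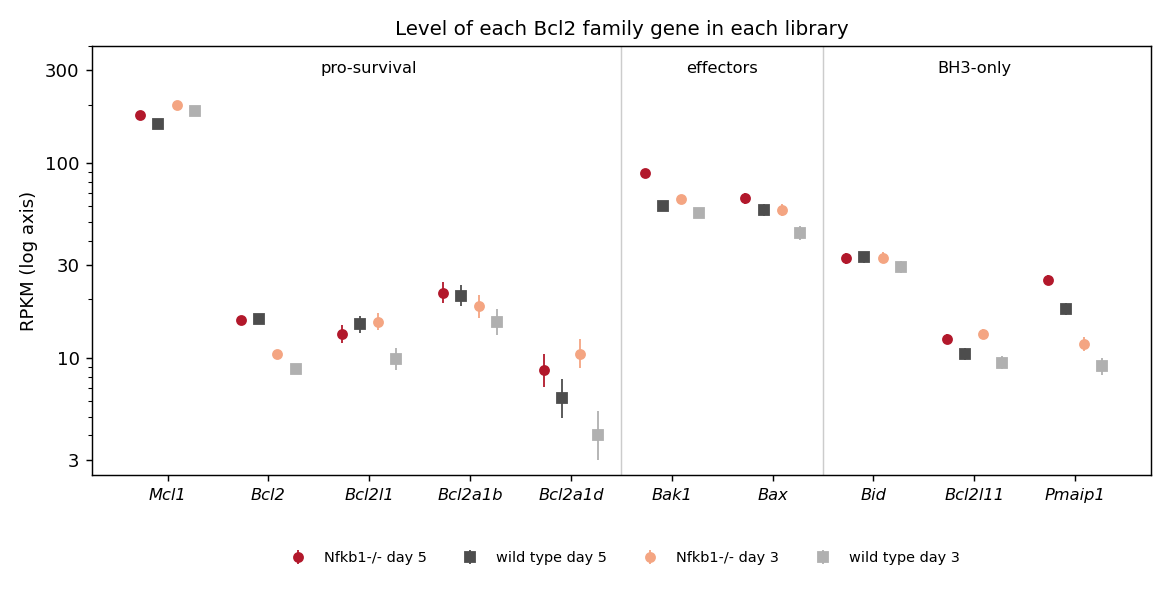
RPKM (log axis) of the 10 genes in each of the 4 libraries, with exact 95% counting intervals as bars. Circles are Nfkb1-/- and squares wild type, with day 5 left of day 3. Mcl1 lies above all others, and Bcl2a1d and Pmaip1 have the widest spread, with their highest library at 2.61 and 2.77 times their lowest.

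For 8 of the 10 genes the 4 libraries lay within a factor of 2. The highest library exceeded the lowest by 1.12 times for Bid, 1.24 for Mcl1, 1.40 for Bcl2l11, 1.41 for Bcl2a1b and 1.51 for Bax, and by 1.55 to 1.80 times for Bcl2l1, Bak1 and Bcl2. Libraries were compared by the difference in log2(RPKM + 1), a scale that shrinks the change of weakly expressed genes, and a gene was called when the difference reached at least 1 in size. Of the 10 genes, 0 passed this rule between genotypes at day 5, where 4.39% of the 11786 genes averaging 1 RPKM or more passed, and 1 passed at day 3, where 1.86% did. Between days, 1 passed in Nfkb1-/- (3.61% of all genes) and 0 in wild type (3.85%). For the change of the genotype difference, day 5 minus day 3, 0 passed (3.63% of all genes). With only 10 genes, 1 call or none is too small a count to be set against these shares. By direction, 0.976% of all genes were higher and 0.882% lower in Nfkb1-/- at day 3, with 115 and 104 genes, a split that became 70 and 156 after rescaling by the median ratio (each library divided by the median, over genes, of its ratio to the geometric mean of the 4 libraries) and 81 and 125 after rescaling to the same sum of RPKM. Day 5 was higher for 0.594% and lower for 3.01% in Nfkb1-/-, and higher for 1.8% and lower for 2.05% in wild type, where 212 and 242 genes became 145 and 346 after rescaling by the median ratio. The genotype difference changed upwards for 1.0% and downwards for 2.63%, with 118 and 310 genes, which became 151 and 214 after rescaling by the median ratio and 141 and 229 after rescaling to the same sum.

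At a looser rule of 1.5-fold, 0 of the 10 genes passed between genotypes at day 5 (14.7% of all genes) and 2 at day 3 (10.5%), which were Bcl2a1d and Bcl2l1. Between days, Pmaip1 passed in Nfkb1-/- (10.2%), and Bcl2 and Pmaip1 in wild type (13.9%). In the change of the genotype difference, Bcl2l1 and Bcl2a1d passed, both downwards (13.4%).

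Bcl2a1d was the gene called between genotypes, higher in Nfkb1-/- at day 3. It stood at 8.65 RPKM in Nfkb1-/- and 6.24 RPKM in wild type at day 5, and at 10.5 RPKM in Nfkb1-/- and 4.04 RPKM in wild type at day 3. Both knockout libraries lay above both wild-type libraries, and wild type at day 3 was the lowest. At day 3 the log2 difference was 1.20 and the ratio of reads 2.61 (exact Clopper-Pearson 95% interval 1.87 to 3.70, counting error only), on 136 reads in Nfkb1-/- and 49 in wild type. The difference was 0.41 at day 5, with a ratio of 1.39 (1.03 to 1.88). When 5 RPKM in place of 1 was added before the logarithm, the day 3 difference was 0.78 and under the rule.

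Bcl2a1b, the most abundant copy, differed little. Its level was 21.7 RPKM in Nfkb1-/- and 20.9 RPKM in wild type at day 5, and 18.4 RPKM in Nfkb1-/- and 15.4 RPKM in wild type at day 3. The interval of its knockout over wild-type ratio included 1 at each day, at 1.04 (0.870 to 1.24) at day 5 and 1.20 (0.981 to 1.47) at day 3. Bcl2a1a, which lies outside the 10 genes, went the other way from Bcl2a1d at day 3. Its row held 41 reads in Nfkb1-/- and 20 in wild type at day 5, and 34 in Nfkb1-/- and 62 in wild type at day 3, so its difference was 0.76 at day 5 and -0.75 at day 3. In wild type it was lower at day 5 than at day 3 by the rule (-1.25), where 2.05% of all genes were.

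Summed over the 4 copies, Bcl2a1 did not reach the rule. The copies together held 403 reads in Nfkb1-/- and 359 in wild type at day 5, and 400 in Nfkb1-/- and 291 in wild type at day 3. Knockout over wild type, the sum gave 1.17 (1.02 to 1.36) at day 5 and 1.29 (1.11 to 1.51) at day 3, and the log2 differences were 0.23 and 0.36. The sum was not rescaled. For single copies at day 3, rescaling by the median ratio took Bcl2a1b from 0.25 to 0.09 and Bcl2a1d from 1.20 to 1.06. Within the sum, Bcl2a1d took 26.3% in Nfkb1-/- and 22.3% in wild type at day 5, and 34.0% in Nfkb1-/- and 16.8% in wild type at day 3. Bcl2a1a took 10.2% in Nfkb1-/- and 5.57% in wild type at day 5, and 8.5% in Nfkb1-/- and 21.3% in wild type at day 3. In the day 3 wild-type library Bcl2a1a therefore held more reads than Bcl2a1d, and in the other 3 libraries fewer. The 8 monocyte and macrophage markers, a cell type that also uses A1, summed to 1554 RPKM in Nfkb1-/- and 1098 RPKM in wild type at day 5, and to 1815 RPKM in Nfkb1-/- and 1230 RPKM in wild type at day 3, and 1 of 8 was higher by the rule at each day and another 1 lower at day 5. Their part in the Bcl2a1 values was not tested.

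**Figure D2:**
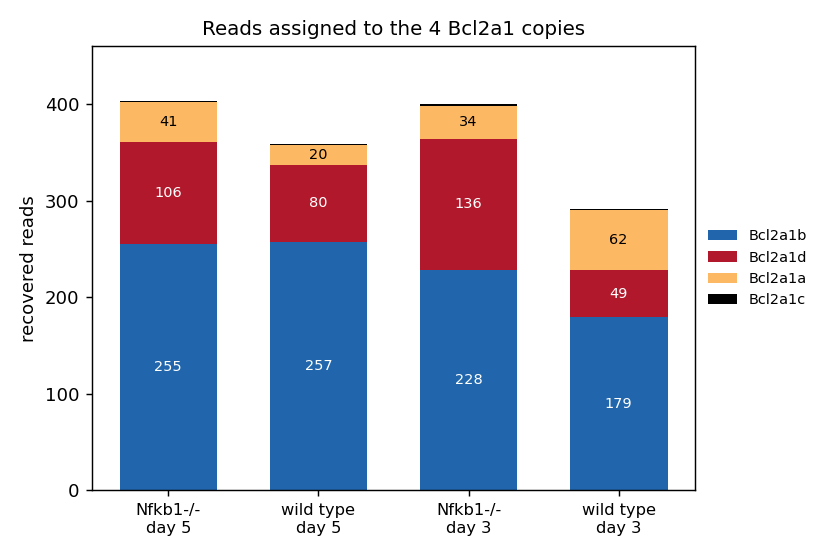
Recovered reads of the 4 Bcl2a1 copies, stacked, in each library, with Nfkb1-/- left of wild type and day 5 left of day 3. The totals run from 291 to 403 reads, and the wild-type library of day 3 has the fewest Bcl2a1d reads (49) and the most Bcl2a1a reads (62). Bcl2a1c, the black line on top, held 1 or 2 reads, at or next to the floor, where 1 read may stand for none.

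The upstream sequences of Bcl2a1d and Bcl2a1a are shown because the rows of these copies differed in opposite directions at day 3. How reads were shared between the rows was not tested, so the values do not show what either promoter did. Each is 250 bases before the RefSeq start, on GRCm38.p6, at chr9:88731851-88732100 on the minus strand for Bcl2a1d and at chr9:88956670-88956919 on the plus strand for Bcl2a1a. Capitals mark bases that differ between them or stand in only one of them in a global alignment.
Bcl2a1d: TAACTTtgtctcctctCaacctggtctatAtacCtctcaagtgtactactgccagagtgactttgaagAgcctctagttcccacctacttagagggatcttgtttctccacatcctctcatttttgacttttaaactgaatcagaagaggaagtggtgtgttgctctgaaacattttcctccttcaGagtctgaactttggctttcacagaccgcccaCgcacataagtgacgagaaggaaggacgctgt
Bcl2a1a: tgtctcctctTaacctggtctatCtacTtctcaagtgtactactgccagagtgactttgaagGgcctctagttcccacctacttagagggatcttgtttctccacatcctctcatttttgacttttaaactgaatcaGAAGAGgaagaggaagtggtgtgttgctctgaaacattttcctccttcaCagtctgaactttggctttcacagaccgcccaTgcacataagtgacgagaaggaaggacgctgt
Of the 250 bases, 238 were aligned and identical, 6 were mismatched and 6 of each stood in that copy alone. A loose NF-kB type pattern, GGG and CC with any 5 bases between them on either strand, was searched in the RefSeq windows from 250 bases before to 50 bases after each start, and overlapping matches were counted. Neither Bcl2a1d nor Bcl2a1a held a match, which says only that these letters are not in this window. The window of Bcl2a1b, the most abundant copy, held 2 matches. Of the 9 among the 10 genes that had a window in the table, 8 held at least 1 match, against 53.5% of the 27025 genes and 50.8% of all windows. Bcl2l1 has 3 windows, of which 1 held matches, and Bcl2l11 has 2, which held 7 matches in all. A match is a description of the letters and not a bound site.

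Bcl2l1, which encodes Bcl-xL, was lowest in wild type at day 3. It stood at 13.3 RPKM in Nfkb1-/- and 14.9 RPKM in wild type at day 5, and at 15.4 RPKM in Nfkb1-/- and 9.90 RPKM in wild type at day 3. The other 3 libraries lay within a narrow range above it. Knockout over wild type gave 0.894 (0.772 to 1.04) at day 5, an interval that includes 1, and 1.55 (1.32 to 1.82) at day 3. The log2 differences were -0.15 and 0.59, and their change of -0.74 stayed under the rule. Within a genotype, day 5 against day 3 gave -0.19 in Nfkb1-/- and 0.54 in wild type. The table holds 1 row for the gene, under a non-coding transcript of the locus (NR_149254), so the long and short splice forms, which act in opposite ways, are not separated. The 6 megakaryocyte markers, a lineage that depends on Bcl-xL, summed to 360.1 RPKM in Nfkb1-/- and 784 RPKM in wild type at day 5, and to 374 RPKM in Nfkb1-/- and 324 RPKM in wild type at day 3. The 7 erythroid markers, of which 5 averaged 1 RPKM or more, summed to 9.41 RPKM in Nfkb1-/- and 25.0 RPKM in wild type at day 5, and to 59.4 RPKM in Nfkb1-/- and 259 RPKM in wild type at day 3. Their part in the Bcl2l1 values was not tested.

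Bcl2 moved with the day and little with the genotype. Its level was 15.6 RPKM in Nfkb1-/- and 15.8 RPKM in wild type at day 5, against 10.4 RPKM in Nfkb1-/- and 8.78 RPKM in wild type at day 3. Both day 5 libraries lay above both day 3 libraries. Day 5 against day 3 gave 0.54 in Nfkb1-/-, with a ratio of 1.497 (1.39 to 1.61), and 0.78 in wild type, with a ratio of 1.80 (1.67 to 1.95), so neither passed the rule. Between genotypes the ratio at day 5 was 0.987 (0.924 to 1.05), and at day 3 it was 1.19 (1.09 to 1.30). Rescaling by the median ratio took the day 3 log2 difference from 0.23 to 0.07. Expressed as a ratio of levels, Bcl2 over Bcl2l1 was 1.17 in Nfkb1-/- and 1.06 in wild type at day 5, and 0.680 in Nfkb1-/- and 0.887 in wild type at day 3. The common dendritic cell markers lay higher at day 5 than at day 3 for 8 of 8 genes in each genotype, with medians of 0.31 in Nfkb1-/- and 0.81 in wild type, and 0 in Nfkb1-/- and 2 in wild type passed the rule. B cell markers ran the other way. Of 8, 6 were lower by the rule at day 5 in Nfkb1-/- and 2 in wild type, and their summed RPKM was 117 in Nfkb1-/- and 214 in wild type at day 5, and 318 in Nfkb1-/- and 381 in wild type at day 3. The part of either cell type in the Bcl2 values was not tested.

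Mcl1 was the steadiest pro-survival gene. Knockout exceeded wild type by a ratio of 1.11 (1.08 to 1.14) at day 5 and 1.07 (1.04 to 1.10) at day 3, and day 5 over day 3 was 0.893 (0.869 to 0.918) in Nfkb1-/- and 0.861 (0.837 to 0.887) in wild type. These narrow intervals rest on 8979 to 11209 reads and say nothing about the spread between cultures. The direction at day 3 depends on the scaling: the log2 difference of 0.10 became -0.07 under rescaling by the median ratio. Late neutrophil markers come from a cell that leans on Mcl-1. At day 5, 11 of 11 were lower than at day 3 by the rule in each genotype. Their medians were -3.02 in Nfkb1-/- and -1.37 in wild type, and Mcl1 differed by -0.16 in Nfkb1-/- and -0.21 in wild type. The part of these cells in the Mcl1 values was not tested.

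Of the effectors, Bak1 was the one with the larger genotype difference at day 5. Its level was 88.5 RPKM in Nfkb1-/- and 60.0 RPKM in wild type at day 5, and 65.8 RPKM in Nfkb1-/- and 55.3 RPKM in wild type at day 3. The Nfkb1-/- library of day 5 stood above the other 3. The knockout over wild-type ratio at day 5 was 1.48 (1.39 to 1.56), and at day 3 it was 1.19 (1.12 to 1.27), with log2 differences of 0.55 and 0.25 that did not reach the rule. Rescaling by the median ratio brought the day 3 difference to 0.08 and the day 5 difference to 0.53. The Bak1 row is also listed under a non-coding transcript (NR_149749).

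Bax was lowest in wild type at day 3. It stood at 66.0 RPKM in Nfkb1-/- and 57.3 RPKM in wild type at day 5, and at 57.8 RPKM in Nfkb1-/- and 43.8 RPKM in wild type at day 3. The knockout library was the higher one, by a ratio of 1.15 (1.05 to 1.27) at day 5 and 1.32 (1.18 to 1.47) at day 3. After rescaling by the median ratio, the day 3 log2 difference of 0.39 became 0.22. Together, Bax and Bak1 summed to 155 RPKM in Nfkb1-/- and 117 RPKM in wild type at day 5, and to 124 RPKM in Nfkb1-/- and 99.1 RPKM in wild type at day 3. Set against the 5 pro-survival genes, the effector sum was 0.654 of theirs in Nfkb1-/- and 0.539 in wild type at day 5, and 0.488 in Nfkb1-/- and 0.443 in wild type at day 3. This ratio compares transcripts only, and the largest part of its denominator is Mcl1.

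Pmaip1, the gene for the BH3-only protein Noxa, which binds Mcl-1 and A1, was the gene called between days. Its level was 25.1 RPKM in Nfkb1-/- and 17.9 RPKM in wild type at day 5, against 11.8 RPKM in Nfkb1-/- and 9.06 RPKM in wild type at day 3. Both day 5 libraries lay above both day 3 libraries, and within each day Nfkb1-/- lay above wild type. Day 5 over day 3 was 2.13 (1.91 to 2.37) in Nfkb1-/-, a log2 difference of 1.03 that passed the rule, and 1.98 (1.74 to 2.25) in wild type, where the 0.91 did not. When 5 RPKM in place of 1 was added before the logarithm, the difference in Nfkb1-/- was 0.84 and under the rule. The change of the genotype difference was 0.12, with a ratio of ratios of 1.08 (0.909 to 1.27), an interval that includes 1. Between genotypes the ratio at day 5 was 1.40 (1.27 to 1.54), and at day 3 it was 1.30 (1.14 to 1.49). Noxa transcripts made up 35.8% of the summed RPKM of the 3 BH3-only genes in Nfkb1-/- and 29.3% in wild type at day 5, and 20.4% in Nfkb1-/- and 18.9% in wild type at day 3.

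Pmaip1 had the widest range of the 10 genes (1.38 on the log2 scale), and the genes closest to its profile over the 4 libraries were looked up among 10503 named genes with at least 20 reads on average. By Euclidean distance between centred log2(RPKM + 1) profiles these were Olfm1 (0.17), Fh1 (0.20), Fads2 (0.21), Clec4b1 (0.21) and Tmem176a (0.21). Fh1, the fumarate hydratase of the citric acid cycle, stood at 94.9 RPKM in Nfkb1-/- and 67.1 RPKM in wild type at day 5, and at 53.7 RPKM in Nfkb1-/- and 36.2 RPKM in wild type at day 3. With 4 libraries many profiles are alike, and the likeness is a description of these libraries.

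Bcl2l11, which encodes Bim, and Bid varied least among the death genes. Bcl2l11 stood at 12.5 RPKM in Nfkb1-/- and 10.5 RPKM in wild type at day 5, and at 13.3 RPKM in Nfkb1-/- and 9.47 RPKM in wild type at day 3. Within each day the knockout library was the higher one, with ratios of 1.19 (1.09 to 1.31) at day 5 and 1.40 (1.27 to 1.54) at day 3. The log2 difference of Bcl2l11 at day 3 went from 0.45 to 0.29 after rescaling by the median ratio. Bid, which links death receptors to mitochondria once cut by caspase-8, stood at 32.6 RPKM in Nfkb1-/- and 32.8 RPKM in wild type at day 5, and at 32.7 RPKM in Nfkb1-/- and 29.3 RPKM in wild type at day 3. Knockout over wild type, Bid gave 0.992 (0.907 to 1.09) at day 5 and 1.12 (1.02 to 1.22) at day 3. Its day 3 log2 difference of 0.15 became -0.01 after rescaling by the median ratio.

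**Figure D3:**
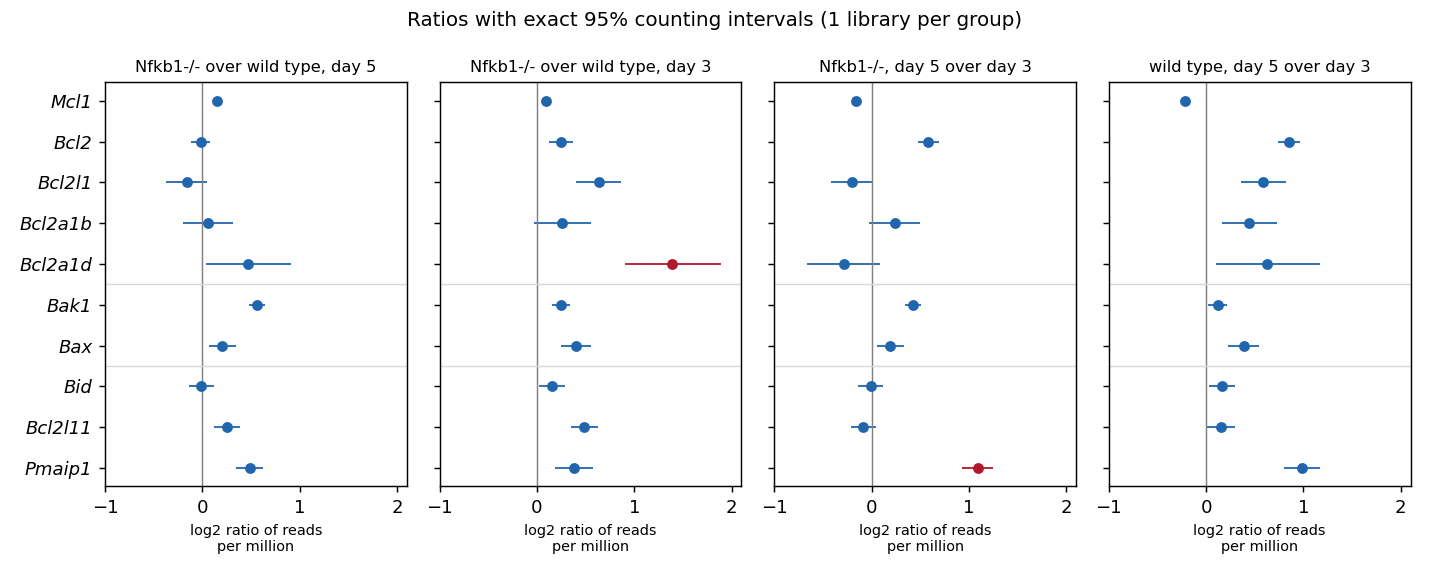
Ratio of reads, scaled to library totals, of each of the 10 genes on a log2 axis in 4 comparisons, with exact 95% Clopper-Pearson intervals that cover counting error only. Red points passed the size rule, which was applied to log2 differences of RPKM + 1, and these are Bcl2a1d between genotypes at day 3 (ratio 2.61) and Pmaip1 between days in Nfkb1-/- (ratio 2.13).

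As a set, the 10 genes had a median genotype difference of 0.17 at day 5, where the median of all genes was 0.01, and of 0.30 at day 3, where it was 0.13. All 10 lay above 0 at day 3, as did 7847 of the 11786 genes, and after rescaling by the median ratio 8 did, with Mcl1 and Bid below 0. At day 5, 7 of 10 lay above 0, which became 9 when libraries were rescaled to the same sum of RPKM. Rescaling by the median ratio brought the day 3 median of all genes to -0.02 and that of the 10 genes to 0.14. Between days the 10 genes had a median of 0.09 in Nfkb1-/- (all genes 0.04) and 0.40 in wild type (all genes 0.16). In wild type 9 of 10 lay above 0 and Mcl1 below, but only 6 after rescaling by the median ratio, which brought the medians to 0.23 for the 10 genes and 0.01 for all genes. The change of the genotype difference was below 0 for 7 of the 10 genes and for 7863 of all genes.

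Other genes of the death pathway were described from 6 further lists, in which 54 of 64 genes averaged 1 RPKM or more. Of the 9 measured other Bcl2 relatives, 1 was higher in Nfkb1-/- by the rule at day 5 and 0 at day 3. This was Bnip3, a mitochondrial protein of mitophagy and the hypoxia response. It stood at 17.0 RPKM in Nfkb1-/- and 7.21 RPKM in wild type at day 5, and at 17.6 RPKM in Nfkb1-/- and 8.62 RPKM in wild type at day 3, so both knockout libraries lay above both wild-type ones, by 1.13 at day 5 and 0.95 at day 3. At day 5, 1.16% of all genes passed the rule in the higher direction and 3.22% in the lower. The list's medians were 0.13 at day 5 and 0.29 at day 3.

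The apoptosome, the caspases and mitochondrial release were covered by 13 genes, of which 0 passed between genotypes at day 5 and 1 at day 3. This was Cycs, the cytochrome c that leaves mitochondria when the effectors open them and that otherwise serves respiration. It stood at 7.14 RPKM in Nfkb1-/- and 4.23 RPKM in wild type at day 5, and at 8.99 RPKM in Nfkb1-/- and 3.53 RPKM in wild type at day 3, a difference of 0.64 at day 5 and 1.14 at day 3. The list median was 0.05 at day 5 and 0.31 at day 3, where all 13 genes lay above 0, or 11 after either rescaling. Casp6, an executioner caspase, stood at 18.1 RPKM in Nfkb1-/- and 17.5 RPKM in wild type at day 5, against 11.4 RPKM in Nfkb1-/- and 7.51 RPKM in wild type at day 3. It was higher at day 5 in wild type by the rule (1.12) and by 0.62 in Nfkb1-/-, and the wild-type difference fell short of the rule after rescaling by the median ratio.

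Of the 8 measured genes of the death receptor arm, 1 was higher in Nfkb1-/- at day 5 and 0 at day 3. Ripk3, the kinase of necroptosis, stood at 19.9 RPKM in Nfkb1-/- and 8.14 RPKM in wild type at day 5, and at 14.0 RPKM in Nfkb1-/- and 11.1 RPKM in wild type at day 3. The Nfkb1-/- library of day 5 was the highest and the wild-type library of day 5 the lowest, with a ratio of 2.44 (2.10 to 2.84) at day 5 and 1.27 (1.09 to 1.47) at day 3. Fas, the death receptor itself, was at 8.35 RPKM in Nfkb1-/- and 8.06 RPKM in wild type at day 5, against 15.8 RPKM in Nfkb1-/- and 18.2 RPKM in wild type at day 3. Day 5 was thus below day 3 in both genotypes, by the rule in wild type (-1.08) and by -0.84 in Nfkb1-/-. The medians of the list between genotypes were 0.13 at day 5 and 0.16 at day 3.

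The other lists held few calls. The 7 inhibitors of apoptosis had 0 calls in any comparison, with medians of -0.13 at day 5 and -0.01 at day 3 between genotypes. Of the 7 measured damage response genes, Trp53inp1, a p53-induced regulator of autophagy, was lower at day 5 than at day 3 by the rule in Nfkb1-/- (-1.17) and by -0.68 in wild type. Its level was 10.1 RPKM in Nfkb1-/- and 16.3 RPKM in wild type at day 5, against 24.0 RPKM in Nfkb1-/- and 26.8 RPKM in wild type at day 3. Of the 10 measured regulators of Bcl2 proteins, 1 passed. Pim1, a kinase that inactivates the BH3-only protein Bad, stood at 64.9 RPKM in Nfkb1-/- and 28.5 RPKM in wild type at day 5, and at 63.2 RPKM in Nfkb1-/- and 34.3 RPKM in wild type at day 3. Both knockout libraries exceeded both wild-type ones, with ratios of 2.28 (2.09 to 2.48) at day 5 and 1.84 (1.70 to 2.00) at day 3, and the difference passed the rule at day 5 (1.16) and not at day 3 (0.86).

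**Figure D4:**
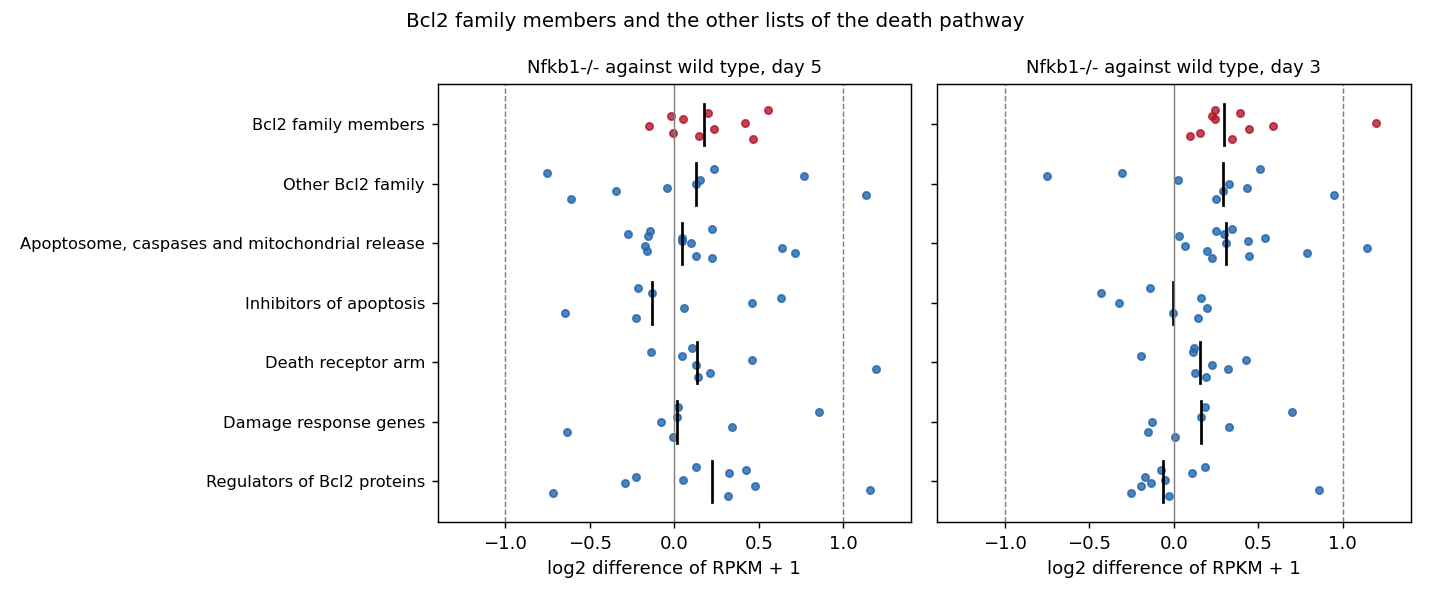
Log2 difference of RPKM + 1, Nfkb1-/- against wild type, at day 5 (left) and day 3 (right) for the 10 Bcl2 family genes (red) and 6 other lists of the death pathway (blue). Each point is a gene, black bars are list medians and dashed lines mark the size rule of 1. Medians run from -0.13 to 0.22 at day 5 and from -0.06 to 0.31 at day 3.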

How the data were processed

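The deposited table, per the file headers, gives 1 RPKM value per gene and library, computed by the authors. HISAT2, SAMtools and the mm9 build are listed in the submitters' processing notes. The sources used here do not give the counting tool, the annotation release or the use of strand. Per the labels' protocols, RNA came from phenol-chloroform extraction and libraries from a Kapa mRNA kit.

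RPKM values step by what 1 read is worth, so library totals, gene lengths and the whole reads of all 26026 genes were recovered (tolerance 0.003 reads). A reference length to set beside the result was found for 22187 genes. For the rest, the shortest length that gave whole reads was kept, so their reads may be too low. No value was 0, so genes without reads stand at 1 read or 1 read was added throughout. Intervals (95%) cover counting error only, since each group has 1 library. Reads that carry no molecular identifier may be copies of 1 molecule, in which case the intervals are too narrow even for counting error. Ratios have Clopper-Pearson intervals, and the ratio of ratios has the exact conditional interval of an odds ratio (SciPy 1.17.1). Alignments used Biopython 1.88. RefSeq and GENCODE sequences are on GRCm38, not the authors' mm9, and Pmaip1 sequence was not used here.

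The 10 genes and all lists were chosen with earlier results of these data known. Named beside the 10 genes are Nfkb1, up to 4 genes per list with the largest difference past the rule, and the 5 nearest profiles to the gene with the widest range. Alternatives were pseudocounts of 0.1 or 5 RPKM, no filter or a filter at 5 RPKM, both rescalings, a rule of 1.5-fold, summed Bcl2a1 copies and, added after the values were seen, at least 20 reads on average. The procedures were tested on simulated libraries. Proteins were not compared here.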

Additional observations from a re-analysis of the deposited data

Results flagged for a closer look

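With 1 library per group, these differences between the days or the genotypes are untested. Each value is the change of the genotype difference, day 5 minus day 3, in log2 of RPKM + 1, and is listed because an effect ran in opposite directions.

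The genotype difference was negative at day 5 and positive at day 3 for Bcl2 (change -0.24), Bcl2l1 (-0.74) and Bid (-0.16). It was positive at day 5 and negative at day 3 for Bcl2a1a (1.51) and Fas (0.24). For Bcl2a1a the opposite directions were lost when the Bcl2a1 copies were summed, at 0.23 at day 5 and 0.36 at day 3. At day 5 the counting interval of the ratio included 1 for Bcl2, Bcl2l1, Bid and Fas. For Bcl2 and Bid the difference at day 5 was -0.02 and -0.01, and both turned positive when libraries were rescaled to the same sum of RPKM. For Bid the difference at day 3 turned to -0.01 after rescaling by the median ratio.

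The day difference was negative in Nfkb1-/- and positive in wild type for Bcl2l1 (-0.74), Bcl2a1d (-0.78), Bcl2l11 (-0.21), Bid (-0.16) and Cycs (-0.50). The counting interval of the ratio included 1 in Nfkb1-/- for Bcl2l1 (0.867, 0.749 to 1.003), Bcl2a1d (0.821, 0.631 to 1.07), Bcl2l11 and Bid. For Cycs it included 1 in wild type (1.20, 0.974 to 1.47). For Bcl2l11 and Bid the opposite directions were lost under both rescalings. By the median ratio, Bcl2l11 gave -0.10 in Nfkb1-/- and -0.02 in wild type, and Bid gave -0.03 in Nfkb1-/- and -0.01 in wild type. With equal sums of RPKM, Bcl2l11 gave 0.004 in Nfkb1-/- and 0.11 in wild type, and Bid gave 0.08 in Nfkb1-/- and 0.13 in wild type. For Bcl2a1d they were lost when the Bcl2a1 copies were summed, at 0.08 in Nfkb1-/- and 0.22 in wild type. The day difference was positive in Nfkb1-/- and negative in wild type for Bcl2a1a (1.51), Ripk3 (0.87) and Pim1 (0.30). For Bcl2a1a the opposite directions were also lost in the sum of the copies. In Nfkb1-/- the counting interval of the ratio included 1 for Bcl2a1a (1.27, 0.786 to 2.06) and Pim1 (1.03, 0.961 to 1.10). Bcl2a1a and Bcl2a1d are near-identical copies, and how reads were shared between them was not tested.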

How the results depend on the processing

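Under a pseudocount of 5 RPKM, 0 of the 10 genes passed between genotypes at day 3 (Bcl2a1d at 0.78) and 0 between days in Nfkb1-/- (Pmaip1 at 0.84). With a rule of 1.5-fold, 2 passed between genotypes at day 3, 2 between days in wild type and 2 in the change of the genotype difference. The counts of the 10 genes past the rule were the same under the other 6 settings run. Bcl2a1d at day 3 was 1.06 after rescaling by the median ratio, 1.12 after rescaling to equal sums of RPKM and 0.36 when the Bcl2a1 copies were summed. Pmaip1 between days in Nfkb1-/- was 1.004 and 1.11 after the 2 rescalings. Among the 10 genes, no called value changed sign in any setting run, and smaller ones did, 5 of 50 after rescaling by the median ratio, 4 of 50 after rescaling to equal sums and 1 of 5 with the Bcl2a1 copies summed (Bcl2a1d between days in Nfkb1-/-, from -0.26 to 0.08). Outside the 10 genes, Bcl2a1a passed the rule between days in wild type (-1.25) and in the change of the genotype difference (1.51). The summed copies gave 0.22 and -0.13 there, of the opposite sign. Rescaling by the median ratio moved 14 of 50 values further than their counting interval reaches from its centre. Among these were the day 3 genotype differences of Bcl2, Mcl1, Bcl2l11, Bax, Bak1 and Bid. Equal sums and a pseudocount of 5 RPKM each moved 4 of 50.

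Over all genes, a pseudocount of 0.1 RPKM gave 7.41% past the rule between genotypes at day 5 and 3.81% at day 3, 5.78% between days in Nfkb1-/- and 6.82% in wild type, and 6.93% in the change. A pseudocount of 5 RPKM gave 1.36%, 0.399%, 1.36%, 1.15% and 0.967% in that order. With at least 20 reads on average (11143 genes), 138 passed at day 3 and 278 in the change, against 219 and 428. With a filter at 5 RPKM, 110 passed at day 3, 318 at day 5, 267 and 260 between days in Nfkb1-/- and in wild type, and 209 in the change, of 8059 genes. No paired analysis was possible because each group has 1 library. Leaving out a replicate was not run for the same reason. Depth limits the Bcl2a1 copies most, with as few as 1 read for Bcl2a1c (which may stand for none), 20 for Bcl2a1a and 49 for Bcl2a1d.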
